A study of Mus musculus with 12 samples.

Results

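The serpins are a family of protease inhibitors and related proteins, and they were followed here in liver RNA-seq of 12 mice fed chow or a diet that causes nonalcoholic steatohepatitis (NASH). Members were chosen by symbol alone: every gene of the deposited count table whose mouse symbol is Serpin followed by a clade letter from a to i and a digit, without the pseudogenes marked -ps. The choice was made with earlier results of these data known. The rule found 49 genes among the 24983 rows of the table: 23 of clade a, 16 of clade b, 3 of clade e, 2 of clade f and 1 each of clades c, d, g, h and i. A further 14 symbols of the family, all of clades a, b and i and among them Serpini2, have no row and are not analysed here.

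A serpin presents a flexible loop as bait to a serine protease, and once the loop is cut the protein snaps shut and traps the enzyme in an inactive complex. The liver secretes much of the serpin content of plasma, including antitrypsin, antithrombin, C1 inhibitor and the inhibitors of plasmin and thrombin. Some members inhibit nothing: they carry hormones in blood or act as chaperones inside the cell. Clade b members lack a classical secretion signal and guard cells against their own or incoming proteases.

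The mice were C57BL/6 (C57BL/6J in the study's design text), with 1 liver library per animal and 3 animals in each of 4 groups. Chow mice received standard chow for 24 weeks, and the labels name no pump for them. The other 3 groups ate the NASH diet, which supplied 40% of calories as fat, much of it saturated or trans-fat, together with fructose and cholesterol, also for 24 weeks. They carried subcutaneous osmotic minipumps that delivered polyethylene glycol (PEG) alone, here called vehicle, oleic acid (OA) in PEG, or nitro-oleic acid (OA-NO2), the nitrated form of OA, in PEG. The stated infusion rate was 5 mg/kg/day, and the labels give neither the weeks of infusion nor sex and age. Whether the chow mice carried a pump is not given in the sources used here, so diet and pump may differ together in each contrast with chow. In whole liver, fewer cells of a type and less RNA per cell cannot be told apart.

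Library totals ran from 8462590 counts in chow 1 to 20613777 in vehicle 3. Levels are given in CPM, which is counts scaled to a common library size, after trimmed-mean (TMM) scaling, and changes as log2 fold changes with standard errors from edgeR's quasi-likelihood test. Calls required an adjusted p under 0.05, with Benjamini-Hochberg adjustment over the 14469 genes tested. Shares of all genes called are of this edgeR fit. None is given for fits with DESeq2, with other scaling or filtering, or with libraries left out. The library OA 3 stood apart from the other OA libraries: on the first principal component it lay at -13.48, against 49.62 and 39.99 for OA 1 and OA 2, and the chow livers lay between -71.87 and -44.72. OA-NO2 1 lay at 10.28, against -26.77 and -12.16 for OA-NO2 2 and OA-NO2 3. Vehicle 1 lay at 22.46, against 43.64 and 54.36 for vehicle 2 and vehicle 3. Results on OA are also given without OA 3. The hepatocyte marker list (Alb, Ttr, Apoa1, Cps1, Tat, Cyp2e1) summed to at least 52200 CPM in every library. The lists of other cell types are given with the comparisons.

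In the genome, 22 of the 49 members sit side by side on mouse chromosome 12, within chr12:103614786-104414329 of build GRCm38, a stretch of 800 kb. It holds the antitrypsin copies Serpina1a to Serpina1e on the minus strand and the Serpina3 copies, most of them on the plus strand. Serpina7 is on chromosome X and the other clades are spread over other chromosomes. The antitrypsin copies are shown first because they differ little from each other upstream of the gene and yet differ in level. The stretches below are RefSeq sequence of GRCm38.p6, 120 bases each on the minus strand, 5′ to 3′, ending upstream of the annotated start or at most 14 bases past it. Capitals mark GTTAAT, the half-site motif of the liver factor HNF1. Serpina7 is set beside them as a clade a member called in the opposite direction under the diet, and its stretch is no copy of the others.

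Serpina1a at chr12:103863611-103863730: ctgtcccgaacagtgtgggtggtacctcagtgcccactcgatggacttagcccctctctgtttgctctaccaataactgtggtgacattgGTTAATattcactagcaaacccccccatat

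Serpina1b at chr12:103738186-103738305: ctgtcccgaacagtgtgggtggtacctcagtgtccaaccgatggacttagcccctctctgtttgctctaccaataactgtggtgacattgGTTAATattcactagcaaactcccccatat

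Serpina1c at chr12:103904948-103905067: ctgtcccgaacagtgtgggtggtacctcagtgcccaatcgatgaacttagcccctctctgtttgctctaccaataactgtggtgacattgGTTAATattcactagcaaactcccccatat

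Serpina1d at chr12:103773620-103773739: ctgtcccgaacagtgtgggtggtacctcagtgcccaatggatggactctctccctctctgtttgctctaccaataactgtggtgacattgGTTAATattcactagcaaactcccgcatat

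Serpina1e at chr12:103956946-103957065: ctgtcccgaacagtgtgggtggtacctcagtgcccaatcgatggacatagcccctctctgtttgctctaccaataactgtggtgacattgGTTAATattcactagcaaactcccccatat

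Serpina7 at chrX:139085264-139085383: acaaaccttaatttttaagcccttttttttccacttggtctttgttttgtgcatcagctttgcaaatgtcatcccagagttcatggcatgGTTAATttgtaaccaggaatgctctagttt

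The 5 antitrypsin stretches were identical at 93.3% to 98.3% of positions over their 10 pairs. Searched on both strands, GTTAAT occurred in 2332 of 32851 RefSeq promoter windows of 300 bases, or 7.1%, and in 8 of the 40 members with a window, or 20%. Those 8 were Serpina1a to Serpina1e, Serpina3c, Serpina7 and Serpinb8, so members called lower, called higher and not called all hold it. The 7.1% counts windows and the 20% counts genes with a match in any of their windows, which are unlike measures. Of the 8, 5 are the near-identical antitrypsin copies, so no enrichment can be read from these shares. A match is a description of the letters and not a shown binding site.

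The second set shows 3 members of the Serpina3 cluster: Serpina3g was higher and Serpina3n lower in vehicle against chow, and Serpina3f was not called. Capitals mark TTCNNNGAA, the motif bound by STAT factors, on the plus strand of GRCm38.p6, with at most 16 bases past the annotated start.

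Serpina3f at chr12:104214383-104214471: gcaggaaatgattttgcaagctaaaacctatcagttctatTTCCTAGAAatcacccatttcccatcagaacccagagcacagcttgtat

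Serpina3g at chr12:104236074-104236162: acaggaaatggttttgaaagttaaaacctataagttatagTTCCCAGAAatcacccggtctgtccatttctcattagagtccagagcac

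Serpina3n at chr12:104406549-104406633: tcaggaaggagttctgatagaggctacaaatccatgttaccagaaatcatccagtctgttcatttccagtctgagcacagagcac

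Serpina3f and Serpina3g matched at 76.4% of aligned positions, and Serpina3g and Serpina3n at 67.4%. TTCNNNGAA occurred in 2726 of the 32851 windows, or 8.3%, and in 7 of 40 members, or 17.5%, again windows beside genes. The stretch of Serpina3n that aligns to the other copies holds none.

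Of the 49 members, 29 had enough counts to be tested and 20 did not: 8 of clade a, 11 of clade b and Serpine3. Untested members had between 2 and 69 counts over all 12 libraries, and never more than 18 in 1 library. Serpina5, the protein C inhibitor, was the one with 18. These members did not pass the filter on low counts, so neither their presence nor a change is judged in the main fit.

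Ranked per length over all libraries, Serpina3k stood at 3260 CPM per kb of exon, Serpina1b at 1960, Serpina1d at 1270 and Serpina1a at 497. Serping1 followed at 407, Serpina1c at 329 and Serpina3n at 300. The coagulation serpins lay lower on this scale, with Serpinf2 at 240, Serpind1 at 198 and Serpinc1 at 162. Serpina6 (150), Serpina7 (79.4) and Serpina10 (68.6) came next, and every tested clade b member was under 7 CPM per kb. The order is of means over all groups and differs between them. In chow, Serpina1e (655 CPM per kb) and Serpina1c (561) stood above Serping1 (533), and Serpina7 was at 22.2 in chow and 151 in vehicle. Neighbours in this order are close, and the order within the Serpina1 copies depends on how shared reads were assigned. The place of Serpinc1 depends on the exon length used, which was 8546 bases for it and 2324 for Serpinf2. Without division by length, Serpinc1 averaged 1380 CPM over all libraries, above Serping1 (947), Serpina1a (910) and Serpinf2 (557). Its place below these members therefore rests on that length.

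Serpins took 2.71% ± 0.115 (SD, n = 3) of all counts in chow livers, 1.54% ± 0.191 in vehicle, 1.64% ± 0.315 in OA and 1.99% ± 0.283 in OA-NO2. The chow range, 2.62% to 2.84%, overlapped none of the others. The Serpina1 copies stood at 1.08% ± 0.0979 of counts in chow and 0.619% ± 0.122 in vehicle, and the Serpina3 copies stood at 1.16% ± 0.0633 and 0.476% ± 0.0799. All remaining members together held 0.467% ± 0.0473 in chow, 0.446% ± 0.0196 in vehicle, 0.462% ± 0.0211 in OA and 0.456% ± 0.0407 in OA-NO2. This last share overlapped between all 4 groups. It pools members called lower in vehicle against chow, such as Serpinc1, Serpind1, Serpinf2 and Serping1, with members called higher, such as Serpina7 and Serpinh1. Shares are unscaled and not tested, so a steady share does not mean a steady scaled level of its members.

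**Figure D1:**
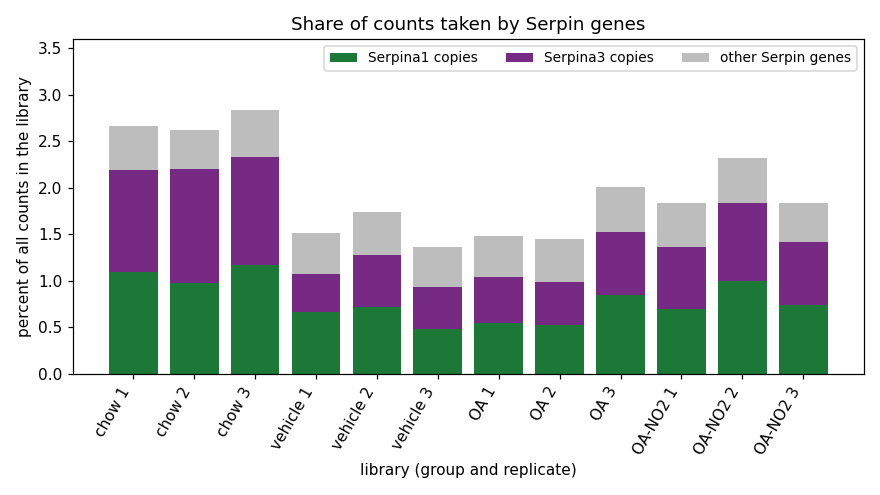
Percent of each library's counts (y axis) taken by the Serpina1 copies, the Serpina3 copies and all other serpins, stacked, for each of the 12 libraries (x axis). The 3 chow livers reach 2.62% to 2.84%, OA-NO2 livers 1.83% to 2.32% and vehicle livers 1.36% to 1.74%, while the grey part stays between 0.410% and 0.513%. The grey part pools members called lower and members called higher in vehicle against chow.

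The NASH diet with vehicle was compared with chow first. Of 29 tested members 20 were called, 6 higher and 14 lower, which is 69% beside 19.3% of all genes called (11.1% higher, 8.16% lower). Because earlier results of these data were known when the members were chosen, this difference is a description and not a test. The members' median log2 fold change was -0.61 and that of all genes -0.01. Scaled by library size alone the all-gene median moved to 0.51 and the members' median to -0.08. The split became 9 higher and 7 lower among 16 called, and the share of all genes called with that scaling is not given. Groups did not overlap for 21 members, 6 higher and 15 lower, beside 39.4% of all genes. Serpinf1 was the member of the 21 that was not called. At an unadjusted p under 0.05 there were 22 members, beside 33.7% of all genes.

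The count of 20 fell to 8 without vehicle 3, to 11 without chow 1 and to 13 without chow 2. No share of all genes is given for these fits. Called under every alternative tried, including each left-out library, were Serpina1d, Serpina1e, Serpina3k, Serpina3m, Serpina7, Serpind1 and Serpinh1.

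**Figure D2:**
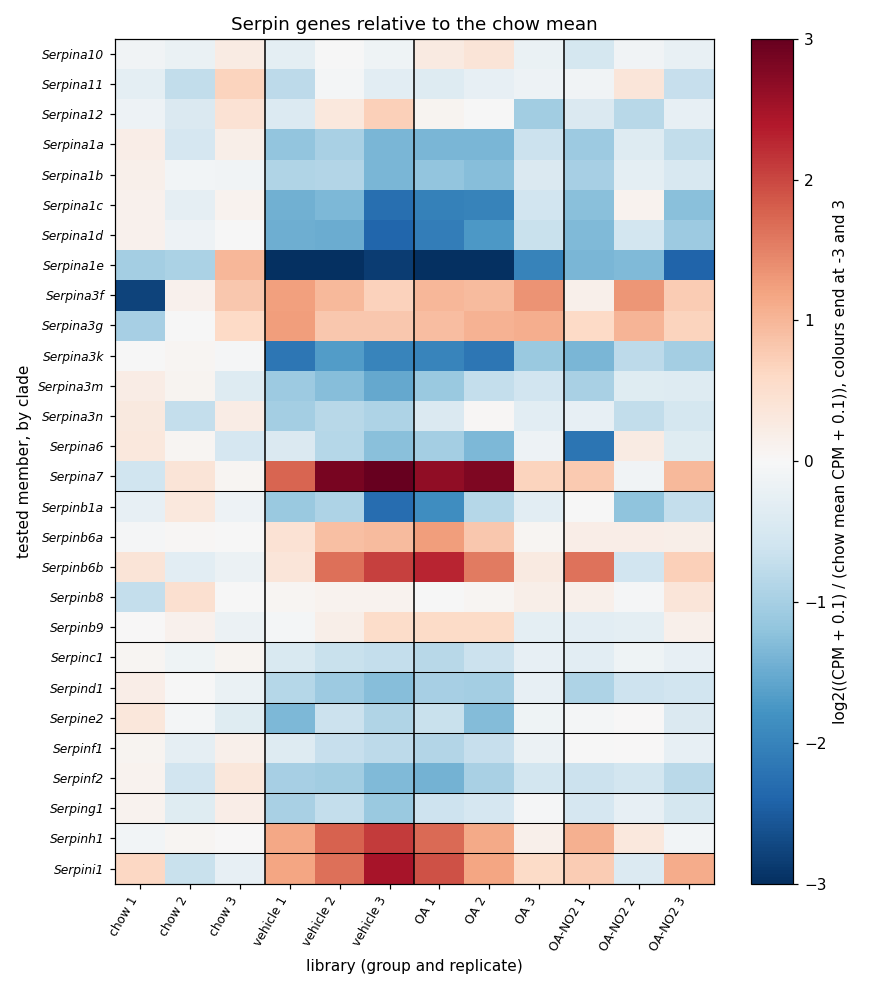
Tested members (rows, by clade) in each library (columns), coloured by log2 of CPM plus 0.1 over the chow mean plus 0.1, with colours ending at -3 and 3. Serpina1 and Serpina3k rows are blue and Serpina7 and Serpinh1 rows red in vehicle, OA 1 and OA 2, and OA 3 is paler in these rows.

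Antitrypsin, the main plasma inhibitor of neutrophil elastase, is encoded in mice by several copies. Serpina1b, the most abundant copy, was at 7870, 6650 and 6580 CPM in the chow livers and at 3760, 3800 and 2710 in vehicle. OA livers held 3120, 2910 and 5180 CPM of it, and OA-NO2 livers 3530, 5720 and 5060. Every vehicle liver was below every chow liver, and the change was -1.04 ± 0.27 (log2, SE; adjusted p = 0.0183). Serpina1d stood at 3520, 2910 and 3200 CPM in chow against 1170, 1140 and 614 in vehicle, again without overlap (-1.72 ± 0.36, adjusted p = 0.00734). Serpina1a fell by 1.17 (SE 0.27, adjusted p = 0.0111) from a mean of 1440 to 641 CPM, and Serpina1c fell by 1.63 (SE 0.44, adjusted p = 0.0230) from 763 to 247. Of the 1361 exon bases of Serpina1c, 429 overlap B430119L08Rik on the other strand, and the counting strand is not given in the sources used here.

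Serpina1e fell most. It was at 524, 550 and 2100 CPM in chow and at 29.7, 94.0 and 147 in vehicle (-3.55 ± 0.79, adjusted p = 0.00986). Chow 3 stood far above the other chow livers, and without it the change was -2.57 (adjusted p = 0.0310). OA livers held 87.6, 34.1 and 264 CPM and OA-NO2 livers 409, 426 and 201. As a share of the antitrypsin counts it was 3.64%, 4.67% and 14.7% in chow and 0.505%, 1.55% and 3.51% in vehicle. The shares of these groups did not overlap, and the exact two-sided permutation test gave p = 0.1, the smallest that 3 against 3 allows (adjusted p = 0.343 over 48 tests of copy shares).

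The copies are alike in their transcripts as well as upstream. Of all 76-base windows, the read length, Serpina1c shares 65.8% with other genes, Serpina1a 49%, Serpina1d 36.6%, Serpina1e 19.3% and Serpina1b 18.7%. How the authors' counting treated such reads is not given in the sources used here, so single copies are uncertain and the sum is less so. Summed, the copies were at 14400, 11800 and 14300 CPM in chow and 5880, 6060 and 4190 in vehicle. All vehicle livers lay below all chow livers, a change of -1.33 ± 0.29 (adjusted p = 0.0094). Single calls rested on libraries: without vehicle 3 the adjusted p was 0.0501 for Serpina1a, 0.0795 for Serpina1b and 0.0899 for Serpina1c, and without chow 1 it was 0.0615 for Serpina1b and 0.0646 for Serpina1c. With scaling by library size alone Serpina1b was at -0.51 and was not called (adjusted p = 0.0597).

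The Serpina3 cluster is the mouse expansion of the single human antichymotrypsin gene. Serpina3k (ENSMUSG00000058207, chr12:104338486-104346144, plus strand), known as contrapsin for its action on trypsin, was the member with the lowest p. It stood at 12800, 13600 and 12700 CPM in chow and at 2910, 4080 and 3320 in vehicle. OA livers were at 3300, 2870 and 5990 and OA-NO2 livers at 5020, 7530 and 6390. No liver on the NASH diet reached the chow range, and the vehicle change was -1.92 ± 0.29 (adjusted p = 0.00252).

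Serpina3m went from 694, 623 and 453 CPM in chow to 276, 245 and 202 in vehicle (-1.29 ± 0.23, adjusted p = 0.00374), also without overlap. Serpina3n, which inhibits granzyme B and is known as an acute phase gene, was at 985, 487 and 932 CPM in chow and at 398, 451 and 419 in vehicle. Chow 2 lay just above the highest vehicle liver, and the change was -0.92 ± 0.25 (adjusted p = 0.0220). Its call was lost without chow 1 (adjusted p = 0.0886), chow 3 (0.0635), vehicle 1 (0.0577), vehicle 2 (0.0535) or vehicle 3 (0.0699). It was also lost with scaling by library size alone (-0.39, adjusted p = 0.221).

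Within the same cluster, Serpina3g was called in the other direction. This intracellular inhibitor of lysosomal cysteine proteases was at 4.05, 8.05 and 12.3 CPM in chow and 19.6, 14.3 and 14.3 in vehicle (0.93 ± 0.28, adjusted p = 0.0337). Vehicle livers lay above all chow livers, but only chow 3 could be left out with the call kept. Without chow 1 the change was 0.66 (adjusted p = 0.0783), and without chow 2, vehicle 1, vehicle 2 or vehicle 3 the adjusted p was 0.0987, 0.103, 0.0575 or 0.0608. Serpina3f had a chow mean of 2.74 ± 2.29 CPM and a vehicle mean of 5.51 ± 1.03 and was not called. Chow 1, the shallowest library, held the lowest value of both.

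Summed, all Serpina3 copies fell from 14500, 14800 and 14100 CPM in chow to 3610, 4800 and 3960 in vehicle, by 1.81 (SE 0.25, adjusted p = 0.00202). Serpina3k made up 90.3% ± 2.01 of that sum in chow and 83.1% ± 2.33 in vehicle, while Serpina3n made up 5.57% ± 1.96 and 10.3% ± 0.849. Neither share overlapped between the groups (exact permutation p = 0.1, adjusted p = 0.343 for each). The Serpina3 copies share fewer windows than the antitrypsin copies, between 1.41% for Serpina3n and 9.41% for Serpina3m among the called ones. Serpina3m also shares 60 exon bases on the same strand with Serpina3k, and its shared windows are with Serpina3k and Serpina3c. In chow the mean was 13000 CPM for Serpina3k and 590 for Serpina3m. The part of Serpina3k reads in the Serpina3m change was not tested.

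Clade a also holds serpins that carry hormones. Serpina7 (ENSMUSG00000031271, chrX:139079257-139085236, minus strand), thyroxine-binding globulin, was at 36.2, 70.7 and 56.3 CPM in chow and at 182, 392 and 533 in vehicle. OA 1 and OA 2 were at 343 and 380 CPM but OA 3 at 86.6, and OA-NO2 livers held 94.5, 50.3 and 106. Vehicle livers were all above the highest chow liver, a rise of 2.76 ± 0.52 (adjusted p = 0.00483). Serpina6, corticosteroid-binding globulin, was not called: its mean was 366 ± 100 CPM in chow, 208 ± 57.6 in vehicle, 218 ± 98.5 in OA and 265 ± 177 in OA-NO2, and these groups overlapped.

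Among the remaining clade a members, Serpina10, the inhibitor of factor Xa that works with protein Z, was at 249 ± 41.2 CPM in chow and 225 ± 21.1 in vehicle. Serpina12, or vaspin, known as an adipokine, was at 65.7 ± 20.9 and 79.6 ± 29.0. Serpina11 was at 24.4 ± 12.8 and 19.0 ± 4.59, and 34.1% of its windows are shared with Gm28577. None of the 3 was called, and their groups overlapped.

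**Figure D3:**
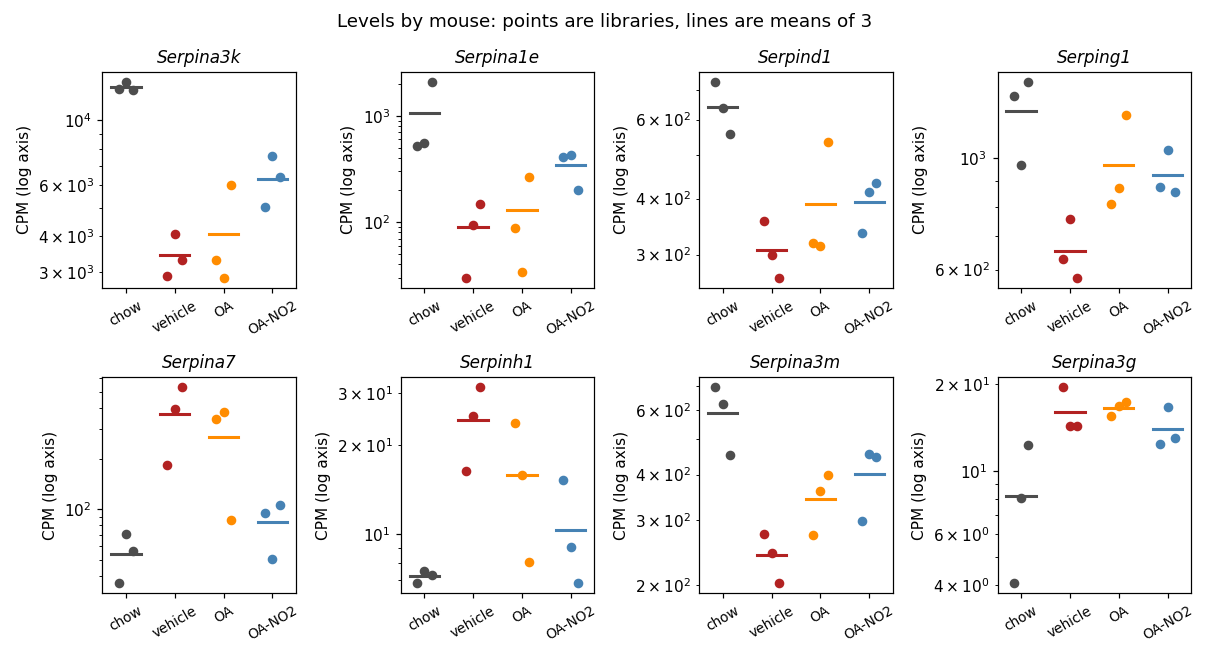
CPM of 8 members on log axes (y) in each of the 4 groups (x), where points are livers and lines are means of 3. Serpina3k is at most 7530 CPM in the livers on the NASH diet and at least 12700 in chow, and Serpina7 is high in vehicle, OA 1 and OA 2. The 8 were all called in vehicle against chow. In these 8 the OA-NO2 mean lies between the chow and vehicle means, and so does the OA mean except for Serpina3g. The OA-NO2 mean does not lie between for Serpina10, Serpina12, Serpinb8 and Serpinb9, which are not shown.

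The serpins that hold coagulation and fibrinolysis in check were lower with the diet. Serpind1, heparin cofactor II, which inhibits thrombin, was at 729, 636 and 556 CPM in chow and 356, 300 and 266 in vehicle, without overlap (-1.06 ± 0.22, adjusted p = 0.00789). Serpinf2, the plasmin inhibitor alpha2-antiplasmin, was at 919, 570 and 1070 against 429, 413 and 341 (-1.11 ± 0.25, adjusted p = 0.0105). Serpinc1, antithrombin, was at 1790, 1590 and 1820 CPM against 1260, 1090 and 1050, the smallest change among the 20 called (-0.61 ± 0.19, adjusted p = 0.0380). All 3 pairs of groups were separate.

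The Serpinc1 call was lost without each chow library in turn (adjusted p = 0.0994, 0.0607 and 0.0840 for chow 1, 2 and 3), vehicle 2 (0.108) or vehicle 3 (0.127), and its change was -0.08 with scaling by library size alone. The gene overlaps the antisense gene Zbtb37 in its exons, and the counting strand is not given in the sources used here. For Serpinf2, scaling by library size alone gave -0.58 (adjusted p = 0.0515).

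Serping1, C1 inhibitor, blocks the first proteases of complement and the contact system. It stood at 1330, 967 and 1420 CPM in chow and at 629, 758 and 577 in vehicle, which did not overlap (-0.92 ± 0.21, adjusted p = 0.0120; 0.0551 without vehicle 3, and -0.39 with scaling by library size alone). OA livers held 810, 873 and 1220 CPM and OA-NO2 livers 876, 1040 and 855. Serpinf1, the angiogenesis inhibitor PEDF, had means of 521 ± 78.4 CPM in chow and 342 ± 52.3 in vehicle and was not called (adjusted p = 0.0531), although these groups did not overlap.

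Among members known from matrix and stroma, the collagen chaperone was higher with the diet. Serpinh1 (ENSMUSG00000070436, chr7:99345376-99353239, minus strand), or HSP47, is the collagen chaperone of the endoplasmic reticulum. It was at 6.86, 7.50 and 7.30 CPM in chow and at 16.3, 25.0 and 31.4 in vehicle. In OA livers it was at 23.7, 15.9 and 8.07 and in OA-NO2 livers at 15.2, 9.06 and 6.83. The chow livers were tightly grouped and all vehicle livers lay more than 2 times above them, a rise of 1.74 ± 0.38 (adjusted p = 0.00881).

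Serpine2, protease nexin-1, an inhibitor of thrombin and of plasminogen activators in tissue, was lower with the diet: 20.7, 15.8 and 12.8 CPM in chow against 6.34, 10.4 and 8.66 in vehicle, without overlap (-0.94 ± 0.29, adjusted p = 0.0354). The adjusted p was 0.126 without chow 1, 0.0791 without chow 2, 0.109 without vehicle 1 and 0.0893 without vehicle 3. With scaling by library size alone the change was -0.41 (adjusted p = 0.236).

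Serpini1, neuroserpin, an inhibitor of tissue plasminogen activator in neurons, rested on few reads. Chow livers held 2, 1 and 2 counts and vehicle livers 11, 14 and 33, or a mean of 0.170 against 0.884 CPM (2.60 ± 0.75, adjusted p = 0.0295). Without chow 2, chow 3, vehicle 2 or vehicle 3 the adjusted p was 0.118, 0.0855, 0.0531 or 0.115. At this depth the size of the change is poorly set.

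Of the 5 tested clade b members, 1 was called higher and 1 lower. Serpinb6a, whose human counterpart inhibits cathepsin G, was at 19.7, 20.6 and 20.0 CPM in chow and 27.1, 37.7 and 39.1 in vehicle (0.79 ± 0.24, adjusted p = 0.0369). Its exons overlap those of Nqo2, Ripk1 and 1110046J04Rik on the other strand. Serpinb1a, which inhibits neutrophil serine proteases, was at 15.9, 23.7 and 17.0 CPM in chow and 8.62, 9.86 and 3.80 in vehicle (-1.36 ± 0.41, adjusted p = 0.0369). Both pairs of groups were separate.

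Neither clade b call held when most single libraries were left out. For Serpinb6a the adjusted p was 0.0970, 0.0891 and 0.0793 without chow 1, 2 and 3, 0.101 without vehicle 2 and 0.121 without vehicle 3. For Serpinb1a it was 0.0640, 0.125 and 0.0554 without chow 1, 2 and 3, 0.0577 without vehicle 1 and 0.125 without vehicle 3, and with scaling by library size alone the change was -0.84 (adjusted p = 0.119). Serpinb6b had means of 6.07 ± 1.65 CPM in chow and 17.5 ± 8.87 in vehicle, with overlap, and was not called. Serpinb9, which protects cells from granzyme B, was at 19.0 ± 1.96 and 22.5 ± 4.92 CPM, and Serpinb8, whose human counterpart inhibits furin, at 5.71 ± 2.31 and 6.08 ± 0.140. Neither was called.

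**Figure D4:**
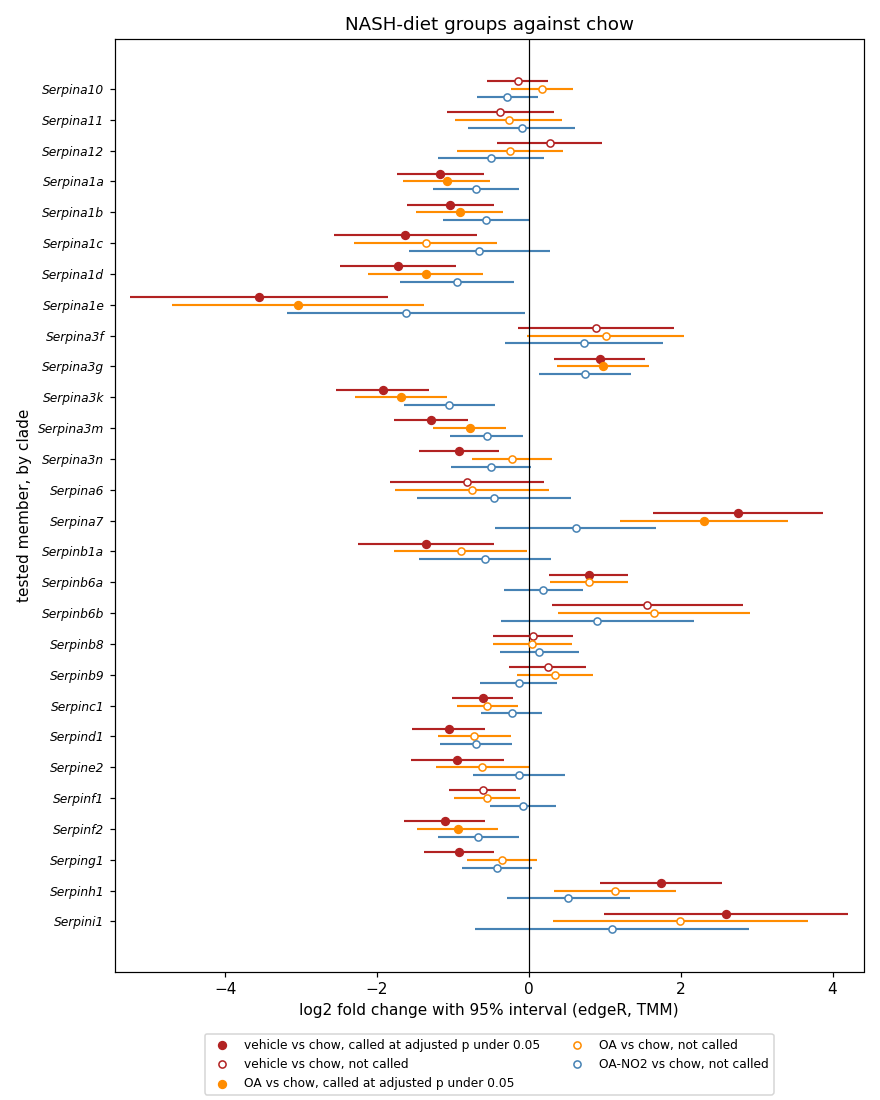
Log2 fold change against chow (x axis) with 95% intervals for tested members (y axis) in vehicle, OA and OA-NO2 livers, which share the chow libraries; filled points are called. Filled points are most frequent for vehicle, fewer for OA and absent for OA-NO2, and Serpina1e and Serpini1 have the widest intervals.

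Genes that serpins act on or act with were counted in lists, for vehicle against chow. Of 12 proteases of coagulation and fibrinolysis 7 were lower and 2 higher, with a median of -0.70. The 7 were F7, F9, F10, F11, Klkb1, Plg and Proz, the last a cofactor of Serpina10 and no protease itself. The 2 were Plau and Plat, the plasminogen activators, and Plau had a log2 change of 1.96. Plat was at 0.156, 0.0688 and 0.128 CPM in chow and at 2.19, 5.54 and 6.04 in vehicle. Its chow reads were too few to set the size of its change. Of 4 complement proteases 2 were lower (C1ra and Masp2), with a median of -0.52. Of 8 tested leukocyte proteases, 3 were higher (Gzma, Ctss and Casp1), with a median of 0.75. Of 7 receptors and cofactors of serpins 2 were higher (Vldlr and Plaur) and 1 lower, with a median of 0.48.

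Of 15 collagens and collagen-modifying partners of Serpinh1, 10 were higher and none lower, with a median of 1.83; Col1a1 rose by 5.05 and Col3a1 by 3.83. Of 15 acute phase genes 6 were higher (Lcn2, Saa1, Saa2, Saa3, Orm2, Orm3) and 2 lower (Fga, Fgb), with a median of 0.33. Among 20 tested protease inhibitors outside the family, 6 were lower (Mug1, Pzp, Itih1, Itih2, Itih3, Kng1) and 3 higher (Timp1, Timp2, Spint2), with a median of -0.40. Of 9 transcription factors known to bind serpin promoters in liver, Hnf4a and Nr1h4 were lower (-0.62 and -0.60) and none was higher. These lists were chosen with earlier results known, and the counts stand beside the 19.3% background.

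Cell type markers moved over the same groups. The hepatocyte list summed to 134000 to 167000 CPM in chow, 52200 to 69100 in vehicle, 61500 to 107000 in OA and 78600 to 116000 in OA-NO2, and 3 of 6 were lower in vehicle, none higher. The stellate cell list summed to 100 to 118, 178 to 283, 140 to 262 and 109 to 177 CPM in the same order, with 5 of 7 higher in vehicle, Col1a1 being in this list and in the collagen list. Macrophage markers summed to 98.3 to 211, 238 to 300, 242 to 403 and 208 to 239 CPM (4 of 6 higher), and bile duct markers to 26.7 to 43.4, 72.3 to 490, 35.2 to 392 and 49.5 to 95.7 (5 of 6 higher). Most of the bile duct sum was Spp1, at 65.9, 460 and 414 CPM in the vehicle livers. No other marker of that list exceeded 13.2 CPM there. The part of these cell types in the serpin changes was not tested.

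Fewer genes of the other lists were called. Of 6 lymphocyte markers 1 was higher in vehicle (median log2 change of the list 1.16), as was 1 of 3 tested mesothelial markers (median 1.46). The mesothelial sum was 18.9 CPM in vehicle 3, against 4.57 and 1.39 in the other vehicle livers and at most 3.84 in chow. None of 3 tested neutrophil, 5 endothelial or 1 tested skin or gut markers was called. The neutrophil list summed to 1.25 to 11.5 CPM in chow, 2.98 to 11.4 in vehicle, 5.12 to 16.8 in OA and 2.73 to 4.35 in OA-NO2, with Ly6g at most 0.064 CPM in any library. No adipose or pancreatic marker had enough counts to be tested, and the adipose sum reached 3.17 CPM in vehicle 1, 1.86 of it Adipoq. Their part in the serpin changes was not tested either.

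OA on the NASH diet was compared with the same chow livers. Of the 29 members 9 were called, 2 higher and 7 lower, or 31% beside 8.56% of all genes (6.33% higher, 2.23% lower). The members' median was -0.36 against -0.01 for all genes. With scaling by library size alone the members' median turned to 0.06 while that of all genes moved to 0.42. With that scaling 10 higher and 4 lower were called, and the share of all genes called is not given. Lower were Serpina1a (-1.08 ± 0.27, adjusted p = 0.0241), Serpina1b (-0.91 ± 0.27, 0.0496), Serpina1d (-1.36 ± 0.35, 0.0313), Serpina1e (-3.04 ± 0.77, 0.0282), Serpina3k (-1.69 ± 0.28, 0.00527), Serpina3m (-0.78 ± 0.22, 0.0471) and Serpinf2 (-0.94 ± 0.25, 0.0345). Higher were Serpina3g (0.98 ± 0.28, 0.0468), at 15.5, 16.8 and 17.3 CPM in OA livers, and Serpina7 (2.31 ± 0.51, 0.0166).

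Groups did not overlap for 16 members, 6 higher and 10 lower, beside 30.9% of all genes, and 20 members had an unadjusted p under 0.05, beside 25.7%. OA 3 lay nearest to chow of the OA livers for most of these: its Serpina1d level was 2010 CPM against 760 and 978 in OA 1 and OA 2, and its Serpind1 level 536 against 319 and 314. Without OA 3, 17 members were called, with no share of all genes to set beside that count. In that fit Serpina3k changed by -2.12 (adjusted p = 0.000318) and Serpina7 by 2.69 (0.0012). Without OA 1 or OA 2 only Serpina3k was called, without chow 1 it was 2 members, without chow 2 it was 5 and without chow 3 it was 4. Over the 6 left-out libraries the adjusted p rose to 0.123 for Serpina1a, 0.205 for Serpina1b, 0.142 for Serpina1d, 0.132 for Serpina1e, 0.126 for Serpina3g, 0.211 for Serpina3m, 0.0743 for Serpina7 and 0.163 for Serpinf2, and for Serpina3k to 0.0309. With DESeq2 15 were called, and in a fit of these 2 groups alone 2 (Serpina3k and Serpina7), without a share of all genes to set beside them. With scaling by library size alone the calls of Serpina1b (-0.51, adjusted p = 0.0781), Serpina3m (-0.36, 0.155) and Serpinf2 (-0.53, 0.0909) were lost.

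The summed antitrypsin copies were at 4710, 4670 and 8890 CPM in OA livers (-1.15 ± 0.29, adjusted p = 0.0278) and the Serpina3 copies at 4180, 4080 and 7060 (-1.50 ± 0.25, adjusted p = 0.00512). All OA livers were below all chow livers in both sums. The antitrypsin call was lost without chow 1 (adjusted p = 0.0846), chow 2 (0.0531), chow 3 (0.0637), OA 1 (0.136) or OA 2 (0.128), and without OA 3 the change was -1.56. In the lists, 6 of 15 collagen-related genes were higher, as were 4 of 7 stellate, 5 of 6 macrophage and 6 of 15 acute phase genes, and of 12 coagulation proteases 3 were lower and 2 higher.

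OA-NO2 on the NASH diet, against the same chow livers, gave no called member with edgeR, beside 0.684% of all genes. DESeq2 called 2 members, Serpina3k and Serpind1, and the share of all genes that it called is not given. At an unadjusted p under 0.05 with edgeR there were 9 members, beside 18.8% of all genes. The lowest p-values were those of Serpina3k (-1.05 ± 0.28, adjusted p = 0.0906), Serpind1 (-0.70 ± 0.22, 0.133) and Serpina1d (-0.94 ± 0.35, 0.180). Serpind1 was at 335, 414 and 433 CPM in OA-NO2 livers, below every chow liver, and Serpina1d at 1290, 2200 and 1520. Groups did not overlap for 8 members, 2 higher (Serpina3g, Serpinb6a) and 6 lower, beside 21.5% of all genes.

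The antitrypsin sum in OA-NO2 livers was 6230, 10300 and 7970 CPM (-0.73 ± 0.29 against chow, adjusted p = 0.202) and the Serpina3 sum 6000, 8500 and 7400 (-0.99 ± 0.25, adjusted p = 0.0762). Both were below all chow values. The members' median was -0.28, and 0.03 with scaling by library size alone, which moved the median of all genes from 0.02 to 0.34. A p that misses the threshold does not show that OA-NO2 livers were like chow livers: the 95% interval for Serpina3k, -1.65 to -0.45, excluded 0 before adjustment. Of all list genes 1 was called, the acute phase gene Orm3.

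The 3 pump groups were then compared with each other on the same diet, as 3 pairs. They share libraries with the contrasts above and are not independent of them. OA against vehicle gave no called member with edgeR or DESeq2 (0% of all genes with edgeR), and 3 members at an unadjusted p under 0.05, beside 3.9% of all genes. These were Serpina3n (0.70 ± 0.25), Serping1 (0.57 ± 0.21) and Serpina3m (0.51 ± 0.22), each at an adjusted p of 0.975. Without OA 3 the changes were 0.71, 0.33 and 0.37. Serpina3n was at 590, 821 and 640 CPM in OA livers, all above vehicle, and so were all OA values of Serping1. They were the only 2 members without overlap, beside 13.1% of all genes.

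DESeq2 called 3 members in OA-NO2 against vehicle (Serpina3k, Serpina7, Serpinh1), and the share of all genes that it called is not given. With edgeR no member was called (0.0207% of all genes), and 13 members had an unadjusted p under 0.05 (15.8% of all genes). The lowest p-values were those of Serpina7 (-2.14 ± 0.51, adjusted p = 0.138), Serpinh1 (-1.22 ± 0.36, 0.169) and Serpina3m (0.73 ± 0.22, 0.176). For Serpina7, no OA-NO2 liver exceeded 106 CPM and no vehicle liver was under 182. Serpinh1 was at most 15.2 CPM in OA-NO2 livers and at least 16.3 in vehicle, and Serpina3m was at 299, 455 and 448 CPM against at most 276.

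Across the family, 15 members did not overlap between OA-NO2 and vehicle, 11 higher and 4 lower, which is 51.7% beside 19.7% of all genes. The 11 were Serpina1c, Serpina1d, Serpina1e, Serpina3k, Serpina3m, Serpina3n, Serpinc1, Serpine2, Serpinf1, Serpinf2 and Serping1. The 4 were Serpina7, Serpinb6a, Serpinh1 and Serpini1. The same vehicle livers stand in the contrast with chow above. The antitrypsin sum differed by 0.60 ± 0.29 (adjusted p = 0.331) and the Serpina3 sum by 0.82 ± 0.25 (adjusted p = 0.171; 0.0242 with DESeq2), again without overlap.

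OA and OA-NO2 differ by the nitro group and were infused at the same stated rate. No member was called between them with edgeR or DESeq2 (0.00691% of all genes with edgeR), 5 members had an unadjusted p under 0.05 (12% of all genes), and no member was free of overlap beside 14.3% of all genes. The lowest p-values were those of Serpina7 (-1.69 ± 0.50, adjusted p = 0.313), Serpinb6a (-0.60 ± 0.24, 0.363) and Serpina10 (-0.46 ± 0.19, 0.374). Serpinb6a was at 48.2, 35.3 and 20.8 CPM in OA livers and at 23.2, 23.1 and 22.7 in OA-NO2 livers, so OA 3 lay below the OA-NO2 range. Serpina10 was at 299, 324 and 218 against 172, 230 and 212.

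Without OA 3, Serpina7 (-2.10, adjusted p = 0.0340) and Serpinb6a (-0.85, adjusted p = 0.0493) were called lower in OA-NO2 than in OA. The share of all genes called in that fit is not given. With any other library of these groups left out no member was called. The adjusted p then rose to as much as 0.859 for Serpina7 and 0.869 for Serpinb6a. With all libraries the intervals stayed wide: 0.42 with a 95% interval of -0.20 to 1.04 for the antitrypsin sum and 0.52 with -0.01 to 1.04 for the Serpina3 sum. The median interval over the 29 members spanned 1.19 on the log2 scale. No likeness of the compounds can be read from the absence of calls.

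**Figure D5:**
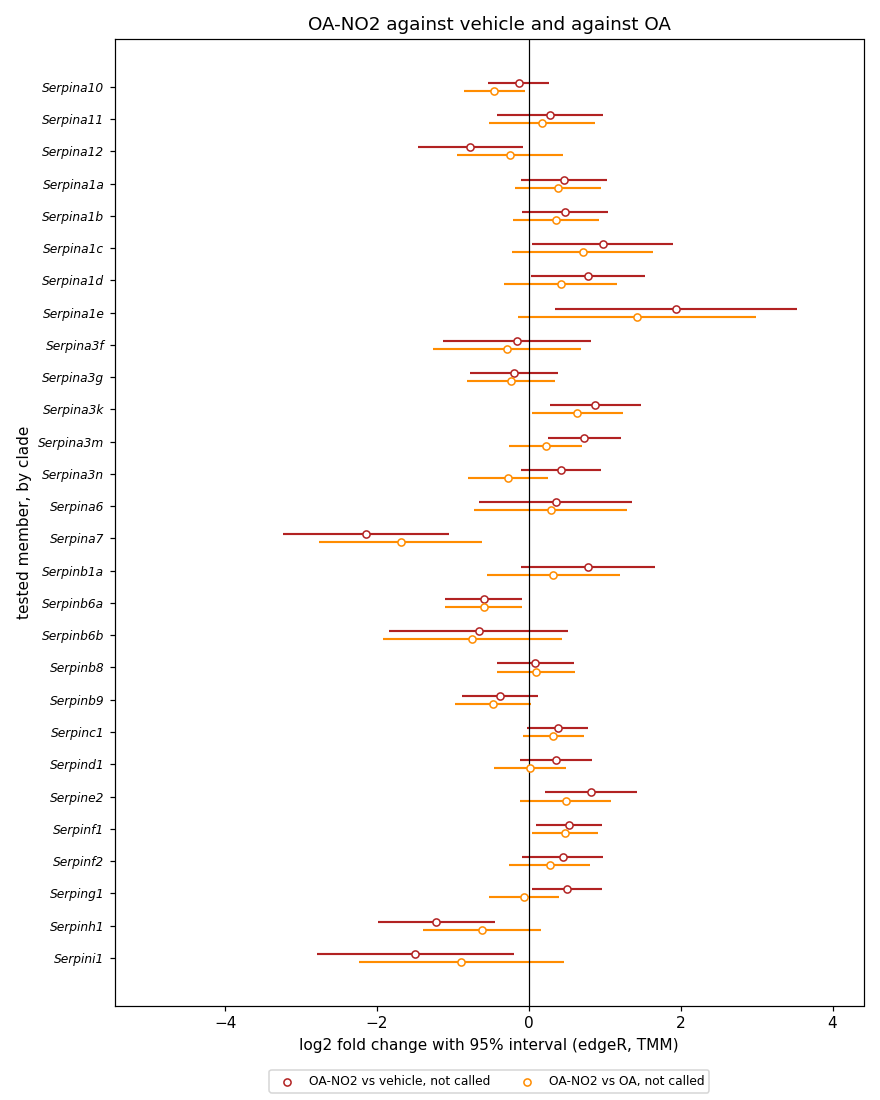
Log2 fold change (x axis) with 95% intervals of tested members (y axis) for OA-NO2 against vehicle and against OA, which share the OA-NO2 libraries; open points are not called. All points are open, Serpina7 lies lowest at -2.14 and -1.69, and Serpina1e lies highest with the widest intervals.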

How the data were processed

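RNA of 12 mouse livers was sequenced after poly(A) library preparation, and the authors deposited raw counts per Ensembl gene; per the labels' protocols and the submitters' processing notes, reads were trimmed with Trimmomatic 0.35, aligned with HISAT2 2.1.0 to GRCm38, handled with SAMtools 1.2 and counted with HTSeq. Not given in the sources used here are the annotation release, the strand setting and the treatment of reads with several matches. Each library is 1 mouse, told apart by ear tag, and replicate numbers follow accession order.

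The counts were fitted with edgeR 4.0.16 in R 4.3.3 (TMM scaling, filterByExpr with a minimum count of 10 and a minimum total of 15, 1 quasi-likelihood fit over all 12 libraries, Benjamini-Hochberg adjustment over 14469 genes). The standard error is the log2 fold change divided by the root of F, and intervals use the fit's t distribution. The biological coefficient of variation was 0.226, and no replicate pair matched within sampling noise (lowest chi-square per degree of freedom 23.4). Depth was 8462590 to 20613777 counts. The script was tested on simulated data.

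DESeq2 1.42.0, other scalings, no filter, 2-group fits and leaving out each library were the alternatives. Coordinates and shared 76-base windows come from GENCODE on GRCm38, promoters from RefSeq. The members and gene lists were chosen with earlier results of these data known. Named with values were members called in any contrast, the 3 lowest p-values where none was called, and a fixed set of members with known roles. Lists of genes that are no members were given as counts. Values of 1 tested member and 1 list gene are not reported here, though counts include them.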

Additional observations from a re-analysis of the deposited data

How the results depend on the processing

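Of 41 values of single members, none reversed under any alternative; over these values the alternatives left the call as it was in 346 cases, took it away in 98 and added it in 7. Leaving out 1 library each, the count of called members ran from 8 to 18 for vehicle against chow, from 1 to 17 for OA against chow and from 0 to 2 for OA-NO2 against OA, and stayed at 0 for the other 3 contrasts. For OA against chow the count was 14 with scaling by library size alone, 15 with DESeq2, 14 with no filter on low counts and 2 in a fit of the 2 groups alone. For OA-NO2 against chow it was 1 with library size alone (Serpina3g) and 2 with DESeq2, and for OA-NO2 against vehicle 3 with DESeq2 and 1 with no filter (Serpina7). No share of all genes called is given for any of these alternatives.

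The antitrypsin sum in OA against chow was -1.15 in a fit of the 2 groups alone (adjusted p = 0.0744) and from -1.56 to -0.99 with 1 library left out. OA against vehicle turned to -0.23 for the antitrypsin sum and to -0.026 for the Serpina3 sum without OA 3, and ran up to 0.34 and 0.45 without other libraries. The Serpina3 sum in OA-NO2 against chow was called with library size alone (-0.67, adjusted p = 0.0473) and with DESeq2 (-0.99, adjusted p = 0.00116), and in OA-NO2 against vehicle with DESeq2 (0.82, adjusted p = 0.0242). The cause of these shifts was not tested. No paired analysis was possible because the labels give ear tags only and the replicate numbers follow accession order. Low counts limit Serpini1 and Serpina3f, and 20 members did not pass the filter on low counts. With no filter, Serpinb1c among these was called lower in vehicle and in OA than in chow. It had at most 10 counts in any library.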
